A study of Mus musculus with 12 samples.

Results

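Interferon-stimulated genes are the genes that cells switch on when an interferon binds its receptor. The 37 mouse genes described here were taken by name: a gene was a member if its Ensembl identifier carries 1 of 37 symbols in GENCODE release M21. All 37 were among the 30399 genes listed for the series, and 36 of them were among the 23674 genes with a mean normalised read count of at least 1, which were tested. The study compared 5 samples labelled normal lung with 7 samples labelled tumor by poly-A selected RNA sequencing of mouse tissue. The series title places the tumors in lung cancer models made by CRISPR/Cas9 mutagenesis without a virus. The labels used here give no genotype, edited gene, strain, sex, age, treatment or time for either group. The titles carry 9 distinct numbers for the 12 samples: tumors 3 and 4 share one, tumors 5, 6 and 7 share another, and each of the remaining samples has its own. What the number stands for is not stated. Tumors 1 and 7 have the Spanish word for trachea in their titles, and tumors 3, 4, 5 and 6 that for lung. Nothing in the labels says that the samples came from separate animals, so p-values measure the spread between these samples, which may be in part technical.

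Interferons are secreted proteins that warn cells of infection. Type I interferons bind a receptor made of IFNAR1 and IFNAR2, type II interferon binds IFNGR1 and IFNGR2, and type III interferons bind IFNLR1 with IL10RB. The receptors pass the signal through JAK kinases to STAT proteins, which join IRF9 and bind a DNA element called the interferon-stimulated response element, or bind in pairs to the gamma-activated site. In the lung, epithelial cells, endothelial cells and resident leukocytes all carry out this response, and its products sense viral nucleic acids, block viral replication or attack vacuoles that hold pathogens.

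Promoters are shown to let the members' regulatory letters be compared with their values. RefSeq promoter windows on GRCm38.p6, from 250 bases before to 50 bases after a start, were found for 27 of the 37 members, in 34 windows. The core of the response element was searched as GAAA, any 2 bases and GAAA again, on both strands, with overlapping matches counted. It was found for 16 of the 27 members (59.3%), against 1079 of all 27025 genes with a window (3.99%). The gamma-activated site, written TTC, any 3 bases and GAA, on either strand, was found for 8 of the 27 members (29.6%) against 2582 of all genes (9.55%). Of the members that were lower in tumor in the test described below, 11 of 18 held the response element core (61.1%), and of the other members 5 of 9 did (55.6%). Those 9 include Igtp, which was not tested and holds 1 core. A match is a description of letters and not a measured binding site. The stretches below run from 160 bases before the start to the base before it, 5′ to 3′ on the gene's strand, with the response element cores in capitals, or in Irf1 the gamma-activated site. They show 3 members of the IFIT family, of which Ifit2 did not pass the test, and 5 members from other families that are given sample by sample further on.
Ifit1: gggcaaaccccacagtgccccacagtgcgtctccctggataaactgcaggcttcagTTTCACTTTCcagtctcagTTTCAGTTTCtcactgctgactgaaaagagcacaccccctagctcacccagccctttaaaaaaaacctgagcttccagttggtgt
Ifit3: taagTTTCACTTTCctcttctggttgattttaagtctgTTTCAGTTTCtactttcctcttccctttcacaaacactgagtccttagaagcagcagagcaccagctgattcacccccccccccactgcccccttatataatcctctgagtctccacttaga
Ifit2: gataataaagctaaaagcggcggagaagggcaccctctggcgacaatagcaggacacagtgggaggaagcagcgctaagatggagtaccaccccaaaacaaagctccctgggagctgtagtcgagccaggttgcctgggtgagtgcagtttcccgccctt
Isg15: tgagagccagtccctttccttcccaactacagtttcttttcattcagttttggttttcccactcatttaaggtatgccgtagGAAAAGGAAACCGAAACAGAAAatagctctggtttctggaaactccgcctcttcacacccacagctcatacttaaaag
Gbp2: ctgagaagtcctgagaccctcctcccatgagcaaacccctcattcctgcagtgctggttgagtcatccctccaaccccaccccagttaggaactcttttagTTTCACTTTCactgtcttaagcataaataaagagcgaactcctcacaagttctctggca
Irgm1: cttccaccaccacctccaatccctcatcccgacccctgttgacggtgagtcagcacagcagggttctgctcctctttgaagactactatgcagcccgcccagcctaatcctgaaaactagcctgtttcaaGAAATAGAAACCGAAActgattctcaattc
Rsad2: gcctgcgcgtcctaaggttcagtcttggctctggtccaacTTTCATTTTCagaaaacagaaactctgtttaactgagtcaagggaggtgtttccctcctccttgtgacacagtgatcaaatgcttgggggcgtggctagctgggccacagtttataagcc
Irf1: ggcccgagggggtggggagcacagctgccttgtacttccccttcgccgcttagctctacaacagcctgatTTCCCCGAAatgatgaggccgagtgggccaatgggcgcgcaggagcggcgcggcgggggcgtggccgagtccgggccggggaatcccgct
On GRCm38.p6 these lie at chr19:34640729-34640888 for Ifit1, chr19:34583369-34583528 for Ifit3, chr19:34550534-34550693 for Ifit2 and chr3:142620503-142620662 for Gbp2, all on the plus strand, and at chr4:156200819-156200978 for Isg15, chr11:48871421-48871580 for Irgm1 and chr12:26456453-26456612 for Rsad2 on the minus strand. The remaining stretch lies at chr11:53769854-53770013 for Irf1 on the plus strand. Ifit1 and Ifit3 each hold 2 cores, which read as TTTC pairs because they lie on the opposite strand. Isg15 holds 3 cores that overlap in 1 run, Irgm1 holds 2 that overlap, and Gbp2 and Rsad2 hold 1 each. Ifit2 and Irf1 have 2 windows each, and the stretch shown comes from 1 of them. No core was found in either Ifit2 window. The Ifit2 window used for the stretch holds a gamma-activated site 241 bases before the start, outside the stretch shown.

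Normal lung libraries held 11126432 to 17032234 reads assigned to genes, and tumor libraries 13093843 to 24217633. A floor of 3 reads equals a normalised count of at most 4.85 in a normal lung and at most 3.57 in a tumor, and covers counting error only. The labelled tissues were checked against marker genes. All 7 markers of lung epithelium and all 6 of endothelium were lower in tumor, and all 6 neuroendocrine markers were higher. Of the 6 fibroblast and smooth muscle markers, 4 were lower and 2 did not pass. Among all genes tested, 30.1% were lower and 31.4% higher. Of the 10 leukocyte markers measured, 9 were lower, with a summed normalised count of 85215 to 165996 in normal lung and 379.7 to 14055 in tumors. Most of this sum in normal lung was 1 gene, Lyz2, at 78689 to 157579 in normal lungs and 134 to 5613 in tumors. Cd3e, a T cell gene, was at 0 in tumors 1, 2 and 3. Cd8a, the marker that did not pass, was at 489 in tumor 6 and 1284 in tumor 7. It was at 185 to 411 in normal lungs and at 0 to 100 in the other tumors. S100a8 was at 1296 in tumor 2, against 210 to 1009 in normal lungs and 0 to 8.09 in the other tumors. Tumor 7 stood apart from the other tumors. As log2 value minus the normal mean, its leukocyte markers had a median of -0.25, against -7.41 to -3.25 in the other tumors. Its heart muscle markers had a median of 5.92, against -5.13 to 1.69 in the other tumors. These heart muscle medians also varied among the normal lungs, from -2.21 to 2.90. The mean log2 level of 4 Y-linked genes was 9.18 to 9.43 in normal lungs 1, 2, 4 and 5 and 9.14 in tumor 1, and 0 to 1.48 in normal lung 3 and tumors 2 to 7.

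Most interferon-stimulated genes had lower levels in the tumors. Of the 36 members tested with limma on log2(normalised count + 1), 26 were lower in tumor at a Benjamini-Hochberg adjusted p under 0.05, 1 was higher (Adar) and 9 did not pass. Among all 23674 genes tested, 30.1% were lower and 31.4% were higher, so the share of members that were lower was above the background and the share that were higher was below it. The median log2 fold change of tumor over normal lung was -1.98 over the members and 0.04 over all genes tested. For 14 members every tumor lay below every normal lung, a pattern held by 18.4% of all genes. For no member did every tumor lie above every normal lung, against 20.1% of all genes. The groups overlapped for the other 22. In bulk tissue, fewer cells of a type and less RNA per cell cannot be told apart. Markers of leukocytes, endothelium and lung epithelium were lower in tumor as well, as were 4 of 6 markers of fibroblasts and smooth muscle. Their part in the members' levels was not tested.

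**Figure D1:**
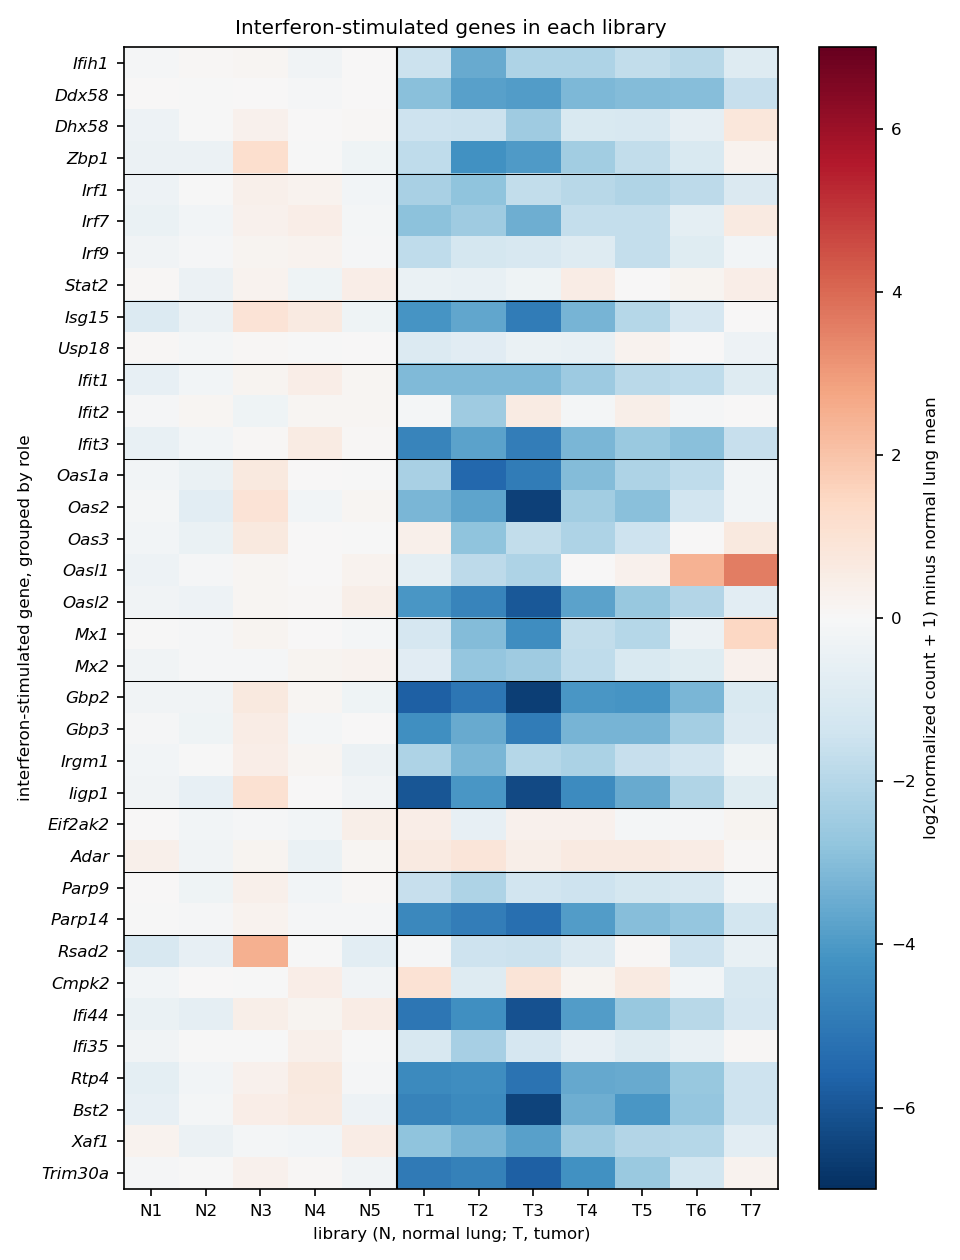
Each row is 1 of the 36 tested members, grouped by role, and each column 1 library (N1 to N5 normal lung, T1 to T7 tumor), with colour for log2(normalised count + 1) minus the normal lung mean. Most rows are blue in T1 to T6 and paler in T7, where the members' median was -0.25.

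Leaving out libraries that stood apart changed the count little. Without tumor 7, limma called 28 members lower, against 32.1% of all genes, and with normal lung 3 left out as well it called 27, against 30.3% of all genes. Adjusted for the Y-linked level, it called 23 lower and 0 higher, against 24.3% and 24.8% of all genes. With edgeR on the recovered reads, 21 members were lower, against 26.1% of all genes. The 5 members that limma called lower and edgeR did not were Dhx58, Zbp1, Irf7, Mx2 and Trim30a.

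**Figure D2:**
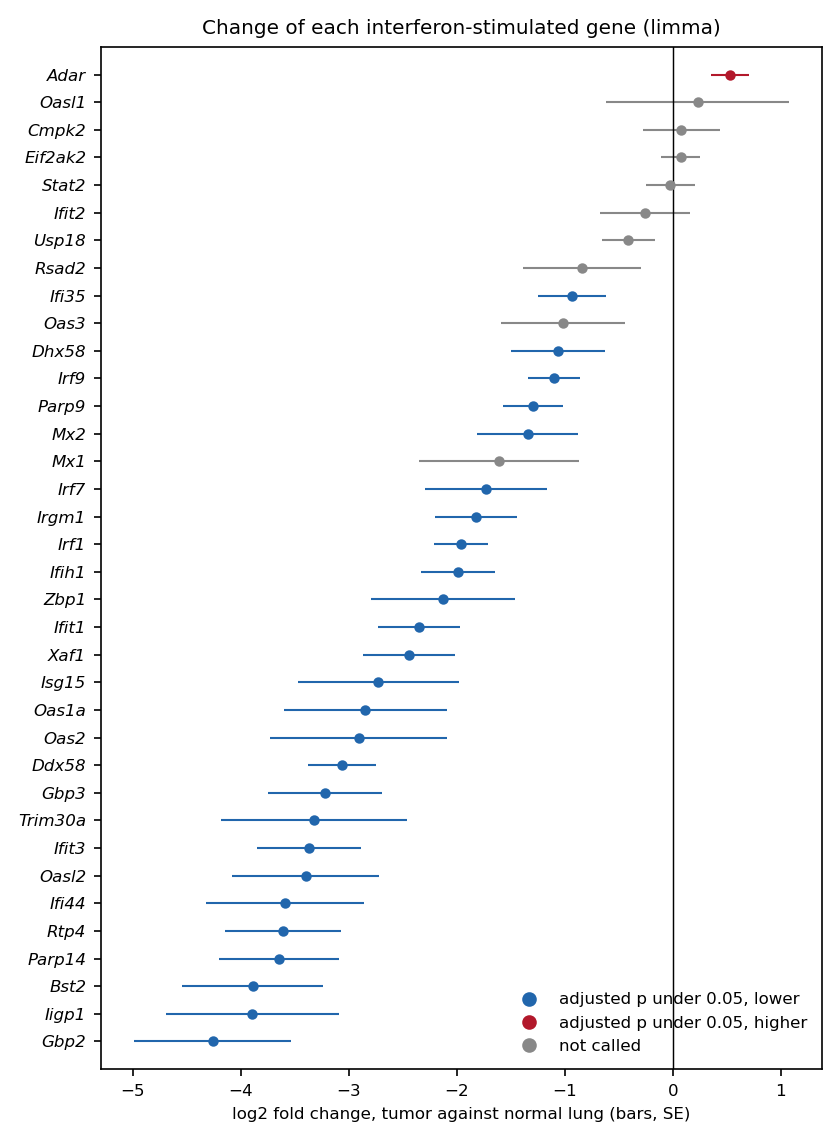
Points are the log2 fold changes of tumor over normal lung for the 36 tested members, with bars of 1 standard error from limma. Blue members were lower and the red member, Adar, higher at an adjusted p under 0.05, and grey members did not pass, with values from -4.26 (Gbp2) to 0.53 (Adar).

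All 4 RNA and DNA sensors were lower in tumor. Ddx58 (ENSMUSG00000040296), which encodes RIG-I, a sensor of viral RNA ends, measured 1199, 1146, 1226, 1131 and 1213 normalised counts in the normal lungs, in order of their numbers, and 158, 83.4, 76.3, 135, 143, 147 and 380.4 in tumors 1 to 7. Every tumor lay well below every normal lung, and the normal lungs were close to each other (log2 SD 0.05). Its log2 fold change was -3.06, SE 0.32, adjusted p = 2.48e-06. Ifih1, which encodes MDA5, a sensor of long double-stranded RNA, measured 615 to 801 in normal lung, with a lowest of 60.8, a median of 189 and a highest of 382 in tumors. It also fell without overlap, by 1.99 on the log2 scale (adjusted p = 2.15e-04). Zbp1, a sensor of Z-form nucleic acids, measured 246, 243, 730.0, 319 and 268 in normal lung and 95.6, 16.7, 19.8, 60.2, 97.1, 158 and 392 in tumors. Normal lung 3 was the highest of the 12, and tumor 7 lay above the other 4 normal lungs (log2 fold change -2.13, SE 0.67, adjusted p = 0.0138). Dhx58, which encodes LGP2, a relative of RIG-I that tunes the other sensors, passed narrowly (log2 fold change -1.06, SE 0.44, adjusted p = 0.0493). Leaving out any library other than tumor 7 raised its adjusted p above 0.05, to between 0.0518 and 0.0997.

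Among the transcription factors of the response, 3 of 4 were lower and Stat2 did not pass. Irf1 (ENSMUSG00000018899), a factor induced above all by type II interferon, measured 2172, 2693, 3498, 3215 and 2384 in normal lungs and 574, 386, 831, 709, 646, 758 and 1349 in tumors. All tumors lay below all normal lungs, at a mean of 750.4 ± 301 (SD, n = 7) against 2792 ± 556 (SD, n = 5), and the log2 fold change was -1.96, SE 0.25, adjusted p = 1.71e-05. Irf7 (ENSMUSG00000025498), which amplifies type I interferon production, measured 347, 424, 585, 667 and 430.0 in normal lungs and 65.2, 85.8, 43.6, 148, 151, 292 and 752 in tumors. Tumors 1 to 6 were all below the normal lungs, while tumor 7 was above all of them, and the log2 fold change was -1.73, SE 0.57, adjusted p = 0.017. Irf9 (ENSMUSG00000002325), the DNA-binding partner of STAT2, measured 1091, 1221, 1454, 1538 and 1226 in normal lungs and 381, 561, 596, 684, 405, 726 and 1131 in tumors. Tumor 7 reached the lower end of the normal lungs and the other tumors stayed under it (log2 fold change -1.10, SE 0.24, adjusted p = 0.00134). Stat2 (ENSMUSG00000040033), the partner that carries the transactivation domain, measured 1466, 1043, 1644, 1154 and 1913 in normal lungs and 1002, 973, 1147, 2018, 1436, 1588 and 1924 in tumors. The groups overlapped over most of their range, with means of 1444 ± 356 (SD, n = 5) and 1441 ± 425 (SD, n = 7) and no call (log2 fold change -0.02, SE 0.22, adjusted p = 0.937).

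Isg15 (ENSMUSG00000035692) encodes a ubiquitin-like protein that is attached to other proteins, and Usp18 encodes the protease that removes it. Isg15 measured 135, 201.1, 522, 416 and 216 in normal lungs and 13.9, 20.3, 7.93, 26.9, 64.7, 115.9 and 269 in tumors. It fell in tumor (log2 fold change -2.73, SE 0.75, adjusted p = 0.00627), with tumors 1 to 6 below the normal lungs and tumor 7 within their range. Usp18, which also restrains signalling at the type I receptor, measured 96.8 to 115 in normal lungs, with a lowest of 53.8, a median of 76.3 and a highest of 128 in tumors. It did not pass the test (log2 fold change -0.41, SE 0.25, adjusted p = 0.162), and tumor 5 was the highest of the 12.

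The IFIT genes encode proteins that bind viral RNA lacking the marks of host RNA. Ifit1 and Ifit3 were lower in tumor and Ifit2 did not pass. Ifit3 (ENSMUSG00000074896) measured 565, 699.9, 843, 1182 and 855 in normal lungs and 31.7, 58.4, 26.8, 87.1, 130.2, 106 and 263 in tumors, without overlap, and its log2 fold change was -3.37, SE 0.48, adjusted p = 4.73e-05. Ifit1 (ENSMUSG00000034459) measured 361, 458, 596, 734 and 574 in normal lungs and 60.8, 60.8, 61.5, 89.8, 139.9, 152 and 282 in tumors, also without overlap (log2 fold change -2.35, SE 0.38, adjusted p = 1.30e-04). Ifit2 (ENSMUSG00000045932) measured 926, 1103, 799, 1071 and 1091 in normal lungs and 911, 175, 1462, 893, 1332, 949 and 1009 in tumors. Tumors 3 and 5 were above every normal lung, tumor 2 was far below the rest, and the log2 fold change was -0.26, SE 0.42, adjusted p = 0.608. Within a sample, the log2 difference of Ifit3 minus Ifit2 ran from -0.71 to 0.14 in normal lungs and from -5.72 to -1.57 in tumors, so the ranges did not overlap. The same difference for Ifit1 minus Ifit2 ran from -1.36 to -0.42 in normal lungs and from -4.55 to -1.51 in tumors, again without overlap. These differences were looked at after the values were seen and were not tested. Of the stretches shown above, those of Ifit1 and Ifit3 hold the response element core and that of Ifit2 does not. Rsad2, whose stretch holds a core, did not pass either. Among members with a window, the core was found for 61.1% of those lower in tumor and 55.6% of the others. Whether the cores bear on the levels was not tested.

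**Figure D3:**
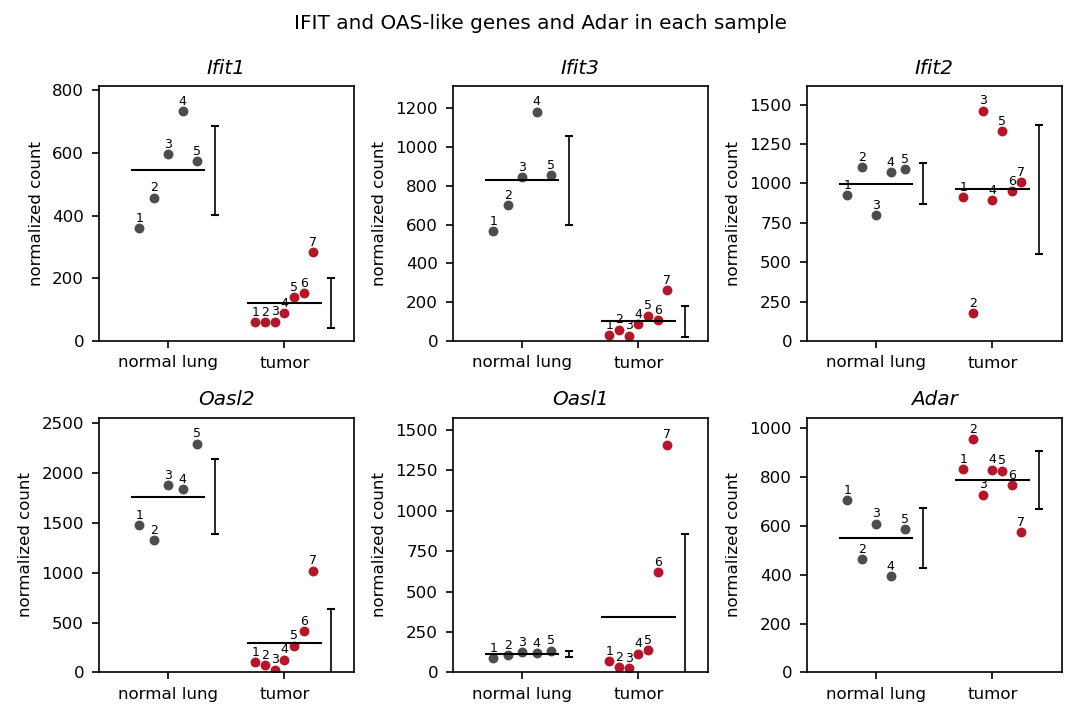
Points are normalised counts of 6 members in each library, on linear axes, with a line at the group mean and a bar of 1 SD, cut at 0 where it would reach below (5 normal lungs, 7 tumors). Ifit1, Ifit3 and Oasl2 are low in tumors, Ifit2 overlaps between the groups, Oasl1 is high in tumors 6 and 7, and Adar is the member that was higher.

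The OAS family senses double-stranded RNA, and 3 of its 5 members were lower. Oasl2 (ENSMUSG00000029561), an OAS-like protein, measured 1477, 1329, 1878, 1837 and 2296 in normal lungs and 103, 70.3, 27.8, 128, 269, 415 and 1022 in tumors. No tumor reached the normal lungs, and the log2 fold change was -3.40, SE 0.68, adjusted p = 7.45e-04. Oas1a (ENSMUSG00000052776), which makes the messenger that activates RNase L, measured 179, 148, 339, 210.2 and 206 in normal lungs and 41.8, 3.57, 5.95, 24.2, 45.3, 59.3 and 183 in tumors. Tumors 1 to 6 were below the normal lungs and tumor 7 within them (log2 fold change -2.85, SE 0.76, adjusted p = 0.00517), and the value in tumor 2 rests on 3 reads. Oas2 (ENSMUSG00000032690), another enzyme of this kind, measured 424, 282, 895, 405 and 506 in normal lungs and 50.6, 34.5, 3.97, 84.4, 60.7, 181 and 405 in tumors. Tumor 3, with 4 reads, was the lowest, and tumor 7 lay within the normal range (log2 fold change -2.91, SE 0.82, adjusted p = 0.00721). Oas3, the largest of these enzymes, measured 108 to 236 in normal lungs and 188, 20.3, 43.6, 32.3, 54.2, 152.97 and 240.2 in tumors. Tumor 7 was above every normal lung and tumors 2 to 5 were below, and the test was not passed (log2 fold change -1.02, SE 0.57, adjusted p = 0.139), whereas the fold was -1.30 without tumor 7 (adjusted p = 0.0434).

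Oasl1 (ENSMUSG00000041827), an OAS-like protein that restrains translation of Irf7, spread widely among the tumors. It measured 90.3, 108, 128, 118 and 135 in normal lungs and 70.3, 31.0, 24.8, 115.9, 139.9, 619 and 1408 in tumors. Tumor 7 was 12.2 times and tumor 6 was 5.35 times the normal mean, tumors 2 and 3 were the lowest, and the log2 SD among tumors was 2.13 against 0.23 among normal lungs. The log2 fold change was 0.23, SE 0.85, adjusted p = 0.826, and its sign turned without either of these tumors. Oasl2 minus Oasl1 ran from 3.62 to 4.08 log2 units in normal lungs and from -0.57 to 1.16 in tumors, without overlap, and this difference was not tested.

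Of the Mx genes, which encode GTPases that trap viral particles, Mx2 was lower and Mx1 did not pass. Mx1 (ENSMUSG00000000386) measured 197, 190.3, 233, 203 and 184 in normal lungs and 89.3, 23.8, 8.92, 59.3, 49.3, 151 and 544 in tumors. Tumors 1 to 6 were below the normal lungs, while tumor 7 was 2.70 times the normal mean. The log2 fold change was -1.61, SE 0.74, adjusted p = 0.0747, and -2.11 without tumor 7 (adjusted p = 0.00502). Mx2 measured 64.5 to 89.7 in normal lungs, with a lowest of 10.7, a median of 35.6 and a highest of 94.8 in tumors, and tumor 7 was again the highest of the 12. Its log2 fold change was -1.34, SE 0.47, adjusted p = 0.0233, which no longer passed without normal lung 5 (adjusted p = 0.051).

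The interferon-induced GTPases of the GBP and IRG families, which act on vacuoles that hold pathogens, had the lowest median log2 fold change of the roles (-3.56), with 4 of 4 tested members lower. Gbp2 (ENSMUSG00000028270) measured 950.5, 964, 1877, 1251 and 929 in normal lungs and 20.9, 33.4, 10.9, 67.4, 63.9, 126 and 546 in tumors. The means were 1194 ± 404 (SD, n = 5) and 124 ± 190.1 (SD, n = 7), and no tumor reached the normal lungs. Its change was the largest of the 36 members (log2 fold change -4.26, SE 0.73, adjusted p = 2.11e-04). Gbp3 was at 524 to 946 in normal lungs and 20.8 to 333 in tumors, without overlap (log2 fold change -3.22). Iigp1 (ENSMUSG00000054072), an immunity-related GTPase, measured 1252, 1017, 3132, 1498 and 1246 in normal lungs and 22.8, 88.2, 17.8, 70.0, 127, 344 and 828.7 in tumors. Normal lung 3 was the highest and tumors 1 and 3 the lowest, again without overlap (log2 fold change -3.89, SE 0.80, adjusted p = 8.63e-04). Irgm1 (ENSMUSG00000046879), which regulates the other GTPases of its family, measured 1261, 1435, 2008, 1576 and 1073 in normal lungs and 325, 157, 359, 307, 472, 574 and 1170.1 in tumors. Only tumor 7 lay within the normal lungs (log2 fold change -1.82, SE 0.38, adjusted p = 9.47e-04). Igtp was not tested, since it had at most 2 reads in any library. Its annotated exons share 8.0% of their bases with Irgm2, whose counts were 1506 to 3036 in normal lungs and 64.3 to 722 in tumors.

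The kinase and the editor of double-stranded RNA were not lower. Adar (ENSMUSG00000027951), which turns adenosine into inosine in double-stranded RNA and so keeps host RNA from being sensed, was the only member that rose. It measured 704, 463, 609, 395 and 587 in normal lungs and 831, 957, 728, 831, 827, 768 and 576 in tumors. Tumors 1 to 6 were above every normal lung and tumor 7 was within their range, with means of 552 ± 123 (SD, n = 5) and 788 ± 117.4 (SD, n = 7). The log2 fold change was 0.53, SE 0.17, adjusted p = 0.0173, and 0.42 without normal lung 4, where it no longer passed (adjusted p = 0.0526). Of the exonic bases of Adar, 16.8% overlap Chrnb2 on the opposite strand in GENCODE M21, and Chrnb2, at 30.7 to 50.5 in normal lungs and 789 to 2081 in tumors, rose (log2 fold change 5.14). Whether counting used the strand is not given in the sources used here, and the part of Chrnb2 reads in the Adar values was not tested. Eif2ak2, which encodes PKR, the kinase that stops translation on sensing double-stranded RNA, measured 854, 742, 799, 748 and 1096 in normal lungs, with a lowest of 571, a median of 958 and a highest of 1142 in tumors, and did not pass (log2 fold change 0.07, SE 0.18, adjusted p = 0.743).

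Parp9 and Parp14 encode proteins of the ADP-ribosyltransferase family, and both were lower. Parp14 (ENSMUSG00000034422) measured 2336, 2271, 2822, 2257 and 2253 in normal lungs and 103, 83.4, 61.5, 156.3, 296, 359 and 973 in tumors. Even the highest tumor, tumor 7, was under the lowest normal lung, and the log2 fold change was -3.65, SE 0.55, adjusted p = 7.74e-05. Parp9 was at 448 to 704 in normal lungs and 120.3 to 485 in tumors, with tumor 7 within the normal lungs (log2 fold change -1.30, SE 0.28, adjusted p = 0.00118).

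Of the other 8 effectors, 6 were lower. Bst2 (ENSMUSG00000046718), which encodes tetherin, a membrane protein that holds budding virus on the cell, measured 1246, 1648, 2500.1, 2848 and 1444 in normal lungs and 72.2, 82.2, 19.8, 171, 108, 278 and 686 in tumors (log2 fold change -3.89, SE 0.65, adjusted p = 1.79e-04). Rtp4 (ENSMUSG00000033355), a receptor transporter protein induced by interferon, measured 515, 716, 1017, 1363 and 784 in normal lungs and 36.7, 39.3, 21.8, 69.2, 70.4, 131 and 303 in tumors (log2 fold change -3.61, SE 0.53, adjusted p = 6.18e-05). Ifi44 (ENSMUSG00000028037), an interferon-induced cytoplasmic protein, measured 144.4, 132, 266, 229 and 289.7 in normal lungs and 5.06, 9.53, 1.98, 12.6, 30.7, 52.6 and 87.7 in tumors (log2 fold change -3.59, SE 0.73, adjusted p = 8.27e-04), and its value in tumor 3 rests on 2 reads. In none of these 3 genes did a tumor reach the normal lungs, and tumor 3 was the lowest and tumor 7 the highest of the tumors in each. Xaf1, an antagonist of the apoptosis inhibitor XIAP, also fell without overlap, with 644 to 1246 in normal lungs and 59.5 to 519 in tumors (log2 fold change -2.44).

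Trim30a (ENSMUSG00000030921), a TRIM protein of innate immunity, measured 1249.7, 1318, 1659, 1418 and 1135 in normal lungs and 42.4, 50.03, 24.8, 70.0, 221, 544 and 1618 in tumors. The tumors spread more widely than for any other member (log2 SD 2.18), from tumor 3 at the bottom to tumor 7 at 1.19 times the normal mean. The log2 fold change was -3.32, SE 0.86, adjusted p = 0.00443, and with edgeR it was -1.81 and did not pass (adjusted p = 0.1004). Ifi35 fell by 0.93 on the log2 scale (adjusted p = 0.0204), a call that was lost without normal lung 4 (adjusted p = 0.0543).

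Rsad2 and Cmpk2 did not pass. Rsad2 (ENSMUSG00000020641), which encodes viperin, an enzyme that makes a chain-terminating nucleotide, measured 239.9, 347, 2957, 515 and 309 in normal lungs and 499, 188, 181, 268, 557, 195 and 365 in tumors. Normal lung 3 was above all other samples and the remaining normal lungs overlapped the tumors (log2 fold change -0.84, SE 0.55, adjusted p = 0.195). Cmpk2 (ENSMUSG00000020638), a nucleotide kinase that supplies viperin's substrate, measured 726, 828, 801, 1141 and 693 in normal lungs and 1665, 444, 1531, 948, 1295, 710.3 and 380.4 in tumors. Tumors 1, 3 and 5 were above every normal lung and tumors 2 and 7 were below (log2 fold change 0.08, SE 0.36, adjusted p = 0.863).

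The tumors differed among themselves. Tumor 2 had 35 of the 36 members below the lowest normal lung (38.4% of all genes lay there) and 1 above the highest (39.3%). Tumor 3 had 31 below (38.0%) and 3 above (39.3%), and tumor 1 had 30 below (37.0%) and 3 above (38.1%). Tumor 4 had 29 below (37.5%) and 2 above (39.7%). Tumor 5 had 28 below (36.8%) and 5 above (40.1%), and tumor 6 had 28 below (35.7%) and 2 above (39.3%). In each of these 6 tumors the share of members below was above the background and the share above was under it. Tumor 7 had 16 below (44.4% of the members, against 31.1% of all genes), 13 within the normal range and 7 above, against 38.1% of all genes. Those 7 were Dhx58, Irf7, Stat2, Oas3, Oasl1, Mx1 and Mx2. Adar was above the normal lungs in tumors 1 to 6 and within their range in tumor 7.

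Tumor 7 was the highest of the tumors for 29 of the 36 members (80.6%), against 24.5% of all genes tested. Tumor 3 was the lowest for 19 members (52.8%, against 15.5%) and tumor 2 for 13 (36.1%, against 20.2%). The median of the members, as log2 value minus the normal mean, was -2.20, -3.14, -3.25, -2.20, -1.83, -1.31 and -0.25 in tumors 1 to 7. The leukocyte markers measured in the same way gave -5.71, -5.99, -7.41, -5.63, -4.60, -3.25 and -0.25, and the endothelial markers -5.68, -4.07, -6.27, -4.96, -5.01, -4.52 and -3.90. Tumor 3 was the lowest and tumor 7 the highest for the members and for both of these lists. For the markers of lung epithelium and of neuroendocrine cells tumor 7 was instead the lowest, at -11.62 and 6.46. Fibroblast and smooth muscle markers ran from -2.45 in tumor 2 to 0.78 in tumor 7. Ptprc, the gene of the leukocyte surface protein CD45, measured 2934, 2844, 3120.3, 1993 and 1988 in normal lungs and 56.3, 83.4, 7.93, 80.8, 231, 758 and 3291 in tumors. Tumor 7 alone reached the level of normal lung. The part of leukocytes and of other tissue in the members' levels was not tested.

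**Figure D4:**
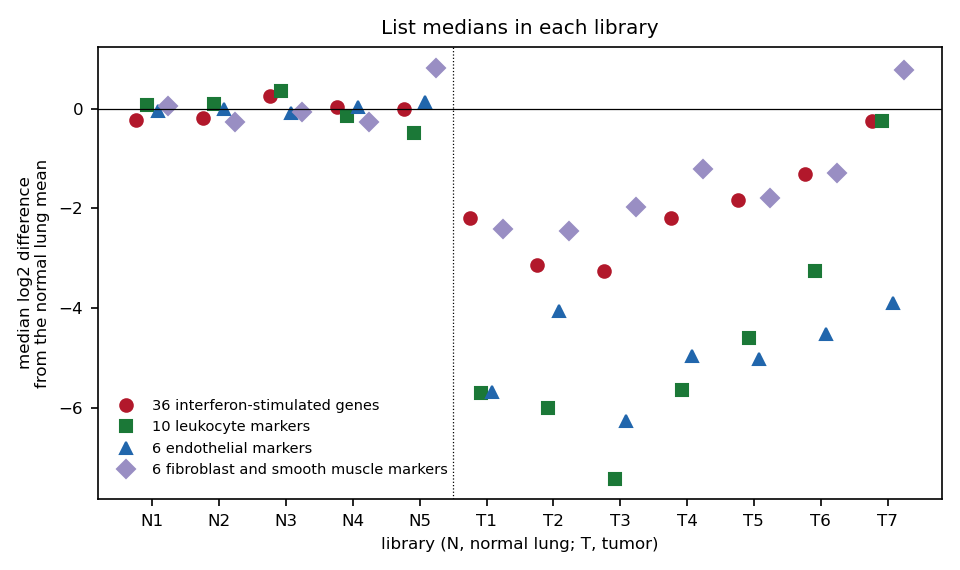
Each point is the median over a list of log2(normalised count + 1) minus the normal lung mean, in 1 library, for the 36 members and for markers of leukocytes, of endothelium, and of fibroblasts and smooth muscle. In tumors 1 to 6 the members lie between -3.25 and -1.31 and the leukocyte markers between -7.41 and -3.25, and in tumor 7 both lie at -0.25.

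The normal lungs varied less, with a median log2 SD over the members of 0.33 against 1.10 among the tumors. Over all genes tested these medians were 0.35 and 0.63, so tumors were also the more variable group there. Normal lung 3 was the highest normal lung for 19 of the 36 members (52.8%), against 19.8% of all genes. The widest spread among the normal lungs was in Rsad2 (log2 SD 1.45), where normal lung 3 was at 2957 and the other normal lungs at 239.9 to 515. Normal lungs 1 and 2 were each the lowest for 13 members (36.1%), against 15.5% and 13.3% of all genes. The members' median in normal lung 3 was 0.26 log2 units above the normal mean, and that of its leukocyte markers 0.35 above.

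The genes that carry or induce the interferon signal were described from a list of 41, of which 32 were listed and 30 tested. Of these, 17 were lower and 2 higher in tumor, against 30.1% and 31.4% of all genes, and their median log2 fold change was -1.34. All 6 receptor genes were lower, although Ifnlr1 did not pass once the Y-linked level was adjusted for. Ifnar1, the first chain of the type I receptor, measured 2141, 2148, 2251, 2223 and 2202 in normal lungs and 1535, 1283, 1513, 1489.9, 1503, 1333 and 1996 in tumors. The groups did not overlap, and the log2 fold change was -0.54, SE 0.12, adjusted p = 0.00183, or -0.33 when libraries were scaled to equal totals (adjusted p = 0.0313). Ifnar2, its partner chain, was at 571 to 734 in normal lungs and 87.2 to 389 in tumors (log2 fold change -2.12, SE 0.30, adjusted p = 4.09e-05). Ifngr1 and Ifngr2, the chains of the type II receptor, fell by 2.04 and 1.92 on the log2 scale, with tumor 7 within the normal lungs for both. Il10rb, the shared chain of the type III receptor, fell by 2.89 without overlap.

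Ifnlr1, the specific chain of the type III receptor, measured 967, 818, 738, 831 and 975 in normal lungs and 781, 16.7, 4.96, 32.3, 71.2, 51.2 and 202 in tumors. Tumor 1 was within the normal range and the other tumors were below it, down to 4.96 in tumor 3, and the log2 fold change was -3.90, SE 0.91, adjusted p = 0.00219. It was -2.47 adjusted for the Y-linked level, where the call was lost (adjusted p = 0.0727), and -2.34 with edgeR (adjusted p = 0.044).

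**Figure D5:**
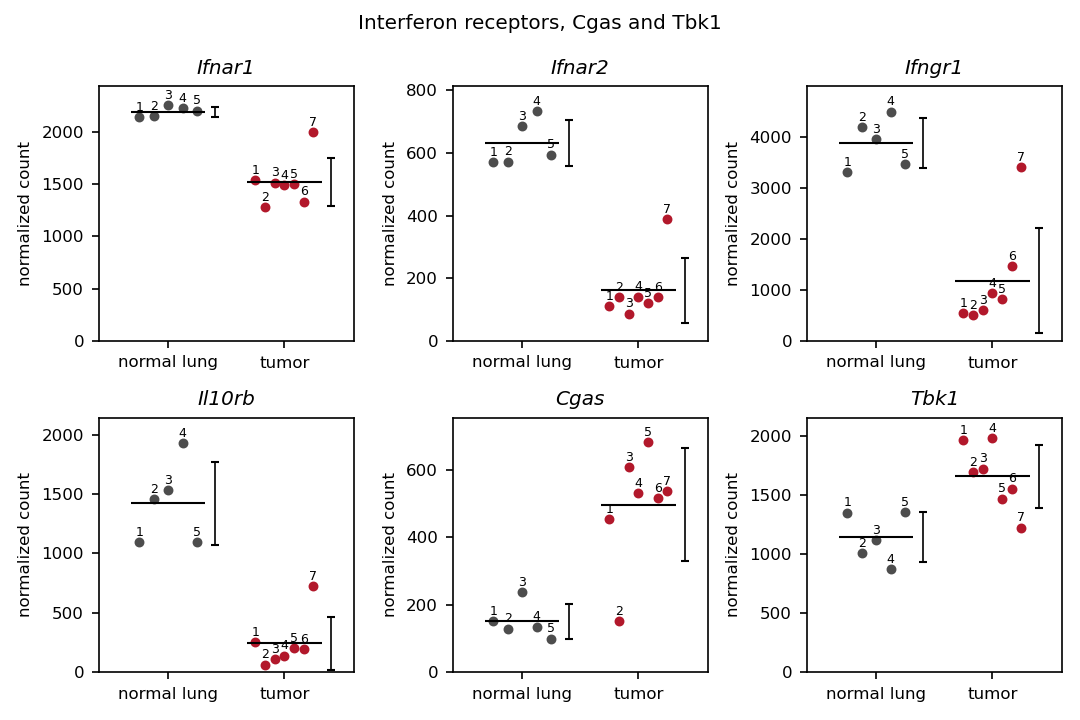
Points are normalised counts of 6 pathway genes in each library, on linear axes, with a line at the group mean and a bar of 1 SD, cut at 0 where needed (5 normal lungs, 7 tumors). Ifnar1, Ifnar2 and Il10rb are lower in every tumor, Ifngr1 reaches the normal lungs in tumor 7, and Cgas and Tbk1 are higher.

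Of the 10 interferon genes in the list, 3 were measured and the others were not analysed here. Ifnb1, a type I interferon, was at 0 in all normal lungs and had at most 2 reads in tumors 5 and 6, and Ifna2 had 1 read, in tumor 3. At this depth no difference could be shown for either. Ifng, the type II interferon made by T and natural killer cells, measured 10.3, 11.8, 29.1, 9.87 and 2.30 in normal lungs and 0, 0, 0, 1.80, 0.809, 2.70 and 8.33 in tumors, of which 3 were at 0. It was lower in tumor (log2 fold change -2.39, SE 0.65, adjusted p = 0.00585), although most of the tumor values are at or under the 3-read floor and the fold depends on the added count of 1: with 0.1 added it was -3.94 (adjusted p = 0.0123).

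Among the 12 tested genes that lead from sensing to interferon, 6 were lower and 2 higher. The 2 that rose, Cgas and Tbk1, are named after their values were seen. Cgas, the sensor of cytosolic DNA, measured 152, 130.1, 237, 135 and 100.02 in normal lungs and 455, 152, 608, 532, 684, 516 and 537 in tumors. All tumors but tumor 2 lay above the normal lungs (log2 fold change 1.66, SE 0.34, adjusted p = 8.91e-04). Tbk1, the kinase that activates IRF3, measured 1354, 1012, 1118, 876 and 1357 in normal lungs and 1966, 1695, 1726, 1982, 1472, 1557 and 1227 in tumors, with tumor 7 within the normal range (log2 fold change 0.54, SE 0.16, adjusted p = 0.0096). The endosomal RNA sensors Tlr3 and Tlr7 and the DNA sensor Tlr9 were lower. Tlr3 measured 610.5 to 743 in normal lungs and 41.1, 28.6, 29.7, 41.3, 180.4, 678 and 1766 in tumors, with tumor 6 inside and tumor 7 above the normal range (log2 fold change -2.47, SE 0.94, adjusted p = 0.0349). Tlr9 measured 102 to 288 in normal lungs and 11.4, 3.57, 1.98, 6.29, 31.5, 147 and 606 in tumors, with the same 2 tumors high (log2 fold change -3.01, SE 1.13, adjusted p = 0.0333). Neither passed with edgeR, at log2 fold changes of -0.68 and -0.70, with DESeq2, at -0.75 and -0.79, or without normal lung 1, 2, 3 or 5 or tumor 1, 2, 3 or 4, and Tlr3 also failed without normal lung 4 and with equal totals, and Tlr9 with the Y-linked adjustment. Tlr7 fell by 2.64 (adjusted p = 0.00254). Ciita, the master regulator of MHC class II, fell by 2.50 (adjusted p = 0.0185), a call that neither edgeR nor DESeq2 made, at -1.25 (adjusted p = 0.226) and -1.31 (adjusted p = 0.152).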

How the data were processed

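RNA sequencing after poly-A selection was measured in 12 mouse tissue samples, with groups taken from the tissue label. The deposited values are a normalised read count signal per gene: in each of the 12 columns every value was a whole multiple of the worth of 1 read within 0.01, and the scaling matched a median-of-ratios size factor, with no division by gene length. The submitters' processing notes name featureCounts, DESeq2 and GRCm39, with no role or order. The aligner, the annotation and any use of strand are not given in the sources used here. Since no annotation of that build was used, symbols came from GENCODE M21, which named 29982 of 30399 identifiers, and exon overlaps and promoters are those of GRCm38. No coordinates are given for the counted genes.

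Genes whose mean was at least 1 entered limma 3.58.1 in R 4.3.3 (lmFit, then eBayes with a trend) as log2(value + 1), with p-values Benjamini-Hochberg adjusted over all 23674 genes and called at an adjusted p under 0.05 with no fold limit. Fold changes are on this scale, which understates the change of low genes, except those given for edgeR or DESeq2. The recovered reads were also tested with edgeR 4.0.16 and DESeq2 1.42.0, and the scripts were tested on simulated counts. Replicate numbers only name samples. The 31 pairs of libraries of 1 group were compared, and none was a duplicate, with 18.4 as the lowest ratio of chi-square to its degrees of freedom.

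The members, the other lists and the tests were chosen with earlier results of these data known. Values in every sample are given for the 8 largest falls without overlap, the 6 members with the largest log2 SD among tumors, and Irf1, Irf7, Irf9, Stat2 and Adar. The other members given sample by sample, Irf5 and Nlrc5 were added after values were seen. Pathway genes are named where they are receptors, ligands with reads or among the 8 largest changes. Some other pathway and marker genes are not reported here. Alternatives covered the pseudocount, the filter, equal library totals, TMM factors, the count tools, title numbers averaged or as a block, trachea-titled tumors left out, a Y-linked covariate and each sample left out. Leaving out normal lung 3 and tumor 7 together was added after seeing the data. Ifna1, Ifna4, Ifna5, Ifnk, Ifne, Ifnl2, Ifnl3, Myd88, Irf8 and the markers Itgam and Actc1 were not analysed here.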

Additional observations from a re-analysis of the deposited data

Results flagged for a closer look

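Of 72 groups of member values checked for a sample far from the rest on the log2 scale, 3 had one, where chance gives about 1 in 20, or 3.6. Zbp1 was 730.0 in normal lung 3 and 243 to 319 in the other normal lungs. Parp14 was 2822 in normal lung 3 and 2253 to 2336 in the others. Ifit2 was 175 in tumor 2 and 893 to 1462 in the other tumors. Without tumor 2 the log2 fold change of Ifit2 was 0.11 in place of -0.26, and it passed the test in neither case. Without normal lung 3, Zbp1 and Parp14 remained lower in tumor.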

How the results depend on the processing

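The number of members that were lower in tumor was 26, and 21 (edgeR) to 28 over all alternatives, and leaving out 1 sample at a time gave 24 to 28. The number that were higher was 1. It was 0 on adjusting for the Y-linked level, where Adar had a log2 fold change of 0.50 (adjusted p = 0.0987), and 0 to 1 on leaving out single samples. Pathway genes lower in tumor numbered 13 (edgeR) to 20, with 17 in the reported fit. Equal library totals moved the median of all genes by 0.19 on the log2 scale, and the members' median was then -1.77.

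Of the 27 members called, none changed direction under any alternative run. The 7 that lost their call under at least 1 were Dhx58, Zbp1, Irf7, Mx2, Adar, Ifi35 and Trim30a. DESeq2 called 24 members lower and dropped Irf7 at -1.16 (adjusted p = 0.0855). Members without a call changed sign as follows. Stat2 was 0.18 with equal totals and -0.130 to 0.0883 on leaving out single samples. Oasl1 was -0.38 with the tumors of 1 title number averaged, -0.0502 with that number as a random block, -0.26 without the trachea-titled tumors, -0.26 with the Y-linked covariate, -0.29 without normal lung 3 and tumor 7, and -0.33 to 0.63 on leaving out single samples. Eif2ak2 was -0.0244 without the trachea-titled tumors. On leaving out single samples, Ifit2 ranged from -0.40 to 0.11 and Cmpk2 from -0.0791 to 0.275. The cause of these changes was not tested. No paired analysis was possible because the labels give no replicate numbers shared between the groups. Igtp, Ifnb1 and Ifna2 had at most 2 reads in a library, so no difference could be shown for them. The cause of the low Igtp counts was not tested.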

Other observations

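Genes that share exons or partners with members were read after the members' values were seen. Phrf1, which shares exonic bases with Irf7, was higher in tumor (limma log2 fold change 0.91, adjusted p = 0.00114). Rnf31, which shares them with Irf9, did not pass (-0.0093, adjusted p = 0.97), nor did Dhx58os (0.72, adjusted p = 0.161). Gm44148 and Gm13822, which overlap Usp18 and Oasl1, were lower (-1.67 and -1.72, adjusted p = 0.00195 and 0.015). Chrnb2 is given with Adar above. Irgm2, an immunity-related GTPase beside Igtp, measured 1506 to 3036 in normal lungs and 64.3 to 722 in tumors and fell by 3.29 on the log2 scale (limma, adjusted p = 5.28e-05). Dtx3l, the ubiquitin ligase that acts with Parp9 and shares exonic bases with it on the opposite strand, fell by 1.54 (adjusted p = 0.00121), from 1257 to 1957 in normal lungs to 195 to 1160.5 in tumors. Irf5, a factor of myeloid and B cells, did not pass (log2 fold change -1.64, adjusted p = 0.131): tumor 7 was at 4795 and tumor 6 at 1369, against 631 to 1391 in normal lungs and 50.6 to 337 in the other tumors. The value depended on the tool and on tumor 7: edgeR gave 0.0533 (adjusted p = 0.966) and DESeq2 -0.0263 (adjusted p = 0.982), while limma passed at -2.29 without tumor 7 (adjusted p = 0.00719), at -2.26 with the tumors of 1 title number averaged (adjusted p = 0.0134), at -2.14 without the trachea-titled tumors (adjusted p = 0.0151) and at -2.17 without normal lung 3 and tumor 7 (adjusted p = 0.0192). Nlrc5, the activator of MHC class I genes, was at 3686 in tumor 7 against 552 to 1365 in normal lungs and 133 to 1272 in the other tumors, and did not pass (log2 fold change -0.46, adjusted p = 0.568), with the sign turned by edgeR (0.27, adjusted p = 0.753) and DESeq2 (0.23, adjusted p = 0.782).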
